A study of Mus musculus with 2 samples.

Results

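Transforming growth factor beta (TGF-beta) signalling was described here through 9 genes, taken by symbol from the gene tables of both libraries: the ligands Tgfb1, Tgfb2 and Tgfb3, the signalling receptors Tgfbr1, Tgfbr2 and Acvrl1, the co-receptors Tgfbr3 and Eng, and the inhibitory Smad gene Smad7. All 9 were found among 32574 genes, under the Ensembl identifiers ENSMUSG00000002603 (Tgfb1), ENSMUSG00000039239 (Tgfb2), ENSMUSG00000021253 (Tgfb3), ENSMUSG00000007613 (Tgfbr1), ENSMUSG00000032440 (Tgfbr2), ENSMUSG00000000530 (Acvrl1), ENSMUSG00000029287 (Tgfbr3), ENSMUSG00000026814 (Eng) and ENSMUSG00000025880 (Smad7). The tissue was adductor muscle made ischemic by femoral artery ligation and collected on day 7, digested with collagenase and sequenced as droplet single-cell libraries. The mutant mice were Apoa1bp-/- (labelled AIBP-KO) and the others were WT littermates, and every mouse of either genotype had the ligation, so no library of unligated muscle entered the comparison. The ligation was done on 4 mice per genotype. There was 1 library per genotype, and whether it pooled the 4 mice is not stated. The labels give neither the age of the mice nor how the allele was made.

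Apoa1bp, listed in the files under its current symbol Naxe (ENSMUSG00000028070), encodes an enzyme that repairs damaged NAD(P)H and, when secreted, binds apolipoprotein A-I. Its transcript had 0 UMIs (unique molecular identifiers, each standing for 1 captured RNA molecule) in the Apoa1bp-/- library and 3319 UMIs in the WT library. In the Apoa1bp-/- library, 3 UMIs would correspond to 0.0424 CPM (UMIs of the gene per 1000000 UMIs). After filtering, 8515 Apoa1bp-/- cells with a median of 6559 UMIs and 12285 WT cells with a median of 4161 UMIs remained. The series title speaks of endothelial cells, but the libraries held all cells of the muscle. By 10 marker genes per type, 319 Apoa1bp-/- and 331 WT cells were endothelial-like, 170 and 147 mural-like, 1327 and 3483 fibroblast-like, 1044 and 834 muscle progenitor-like, and 3727 and 5466 mononuclear phagocyte-like (macrophages, monocytes and dendritic cells). At least 9 of the 10 markers were found in over 25% of the cells of each of these 5 types. No marker was 1 of the 9 genes. With 1 library per genotype no test of the genotype is possible. All intervals below are 95% intervals for counting error alone, and differences between mice, surgeries and preparations are not in them.

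The 3 TGF-beta ligands are secreted as latent complexes, held in the matrix or on cell surfaces and released by integrins, thrombospondin and proteases. The active ligand binds the type II receptor encoded by Tgfbr2, which recruits and phosphorylates a type I receptor. Through the type I receptor encoded by Tgfbr1 (ALK5) the signal passes to Smad2 and Smad3. In endothelium, Acvrl1 (ALK1), which also serves the circulating ligands BMP9 and BMP10, passes it to Smad1 and Smad5. Betaglycan (Tgfbr3) presents ligand, Tgfb2 product above all, to the type II receptor, and endoglin (Eng) assists ALK1. In injured muscle the pathway is known for its part in matrix deposition by fibroblasts and for restraining the differentiation and fusion of myoblasts, and in vessels for endothelial quiescence and mural cell recruitment.

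Promoter windows were available for 5 of the 9 genes (RefSeq, mouse build GRCm38.p6, 250 bases before to 50 bases after the annotated start). The windows of Tgfb1, Tgfb2 and Eng are shown because these genes were highest in different cells (phagocytes, muscle progenitors and endothelium), and that of Tgfbr2 because it was lower in several Apoa1bp-/- cell types. Capitals mark GGGCGG, the core bound by Sp1-type factors, on either strand (its reverse complement is CCGCCC), and the TATAAA box.
Tgfb1, chr7:25686752-25687051, plus strand: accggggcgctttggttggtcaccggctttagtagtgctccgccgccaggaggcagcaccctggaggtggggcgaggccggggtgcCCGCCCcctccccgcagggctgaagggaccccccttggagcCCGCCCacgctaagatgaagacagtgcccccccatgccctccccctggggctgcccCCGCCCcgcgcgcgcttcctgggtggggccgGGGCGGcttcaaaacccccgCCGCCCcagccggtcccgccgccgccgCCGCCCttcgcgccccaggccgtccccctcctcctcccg
Tgfb2, chr1:186705940-186706239, minus strand: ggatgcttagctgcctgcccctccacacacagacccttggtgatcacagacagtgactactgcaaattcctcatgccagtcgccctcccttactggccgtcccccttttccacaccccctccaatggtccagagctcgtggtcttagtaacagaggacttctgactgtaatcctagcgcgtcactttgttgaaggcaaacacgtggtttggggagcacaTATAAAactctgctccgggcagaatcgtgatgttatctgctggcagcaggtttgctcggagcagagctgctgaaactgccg
Eng, chr2:32646345-32646644, plus strand: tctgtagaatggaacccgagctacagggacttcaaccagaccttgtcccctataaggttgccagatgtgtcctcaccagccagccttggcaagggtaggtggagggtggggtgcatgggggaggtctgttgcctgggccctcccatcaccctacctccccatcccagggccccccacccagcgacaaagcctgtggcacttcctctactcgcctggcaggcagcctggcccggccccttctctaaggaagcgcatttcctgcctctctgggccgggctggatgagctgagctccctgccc
Tgfbr2, chr9:116175314-116175613, minus strand: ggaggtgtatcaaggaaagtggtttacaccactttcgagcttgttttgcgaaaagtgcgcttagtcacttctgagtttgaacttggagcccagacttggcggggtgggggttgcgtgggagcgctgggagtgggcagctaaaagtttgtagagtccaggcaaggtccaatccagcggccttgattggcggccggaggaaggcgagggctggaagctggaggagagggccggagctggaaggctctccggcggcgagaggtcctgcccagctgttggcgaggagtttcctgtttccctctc
The Tgfb1 window was 77% G and C and held 6 GGGCGG matches, with their first bases at -164, -123, -67, -36, -16 and 11 from the start (counted as 0), whereas 35.7% of 32851 mouse promoter windows of this length held at least 1. The Tgfb2 window was 54.3% G and C, close to the median of 52.7%, and held TATAAA at -31, a box found in 13.6% of windows. The Eng window (63.3% G and C) and the Tgfbr2 window (59% G and C) held neither. The AP-1 motif TGANTCA (7.81% of windows) and CCGGAA, a form of the Ets motif (14.9%), also searched on both strands, were in none of the 5 genes' windows. Other forms of the Ets motif were not searched. All matches given here are of letters, not measured binding sites.

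**Figure D1:**
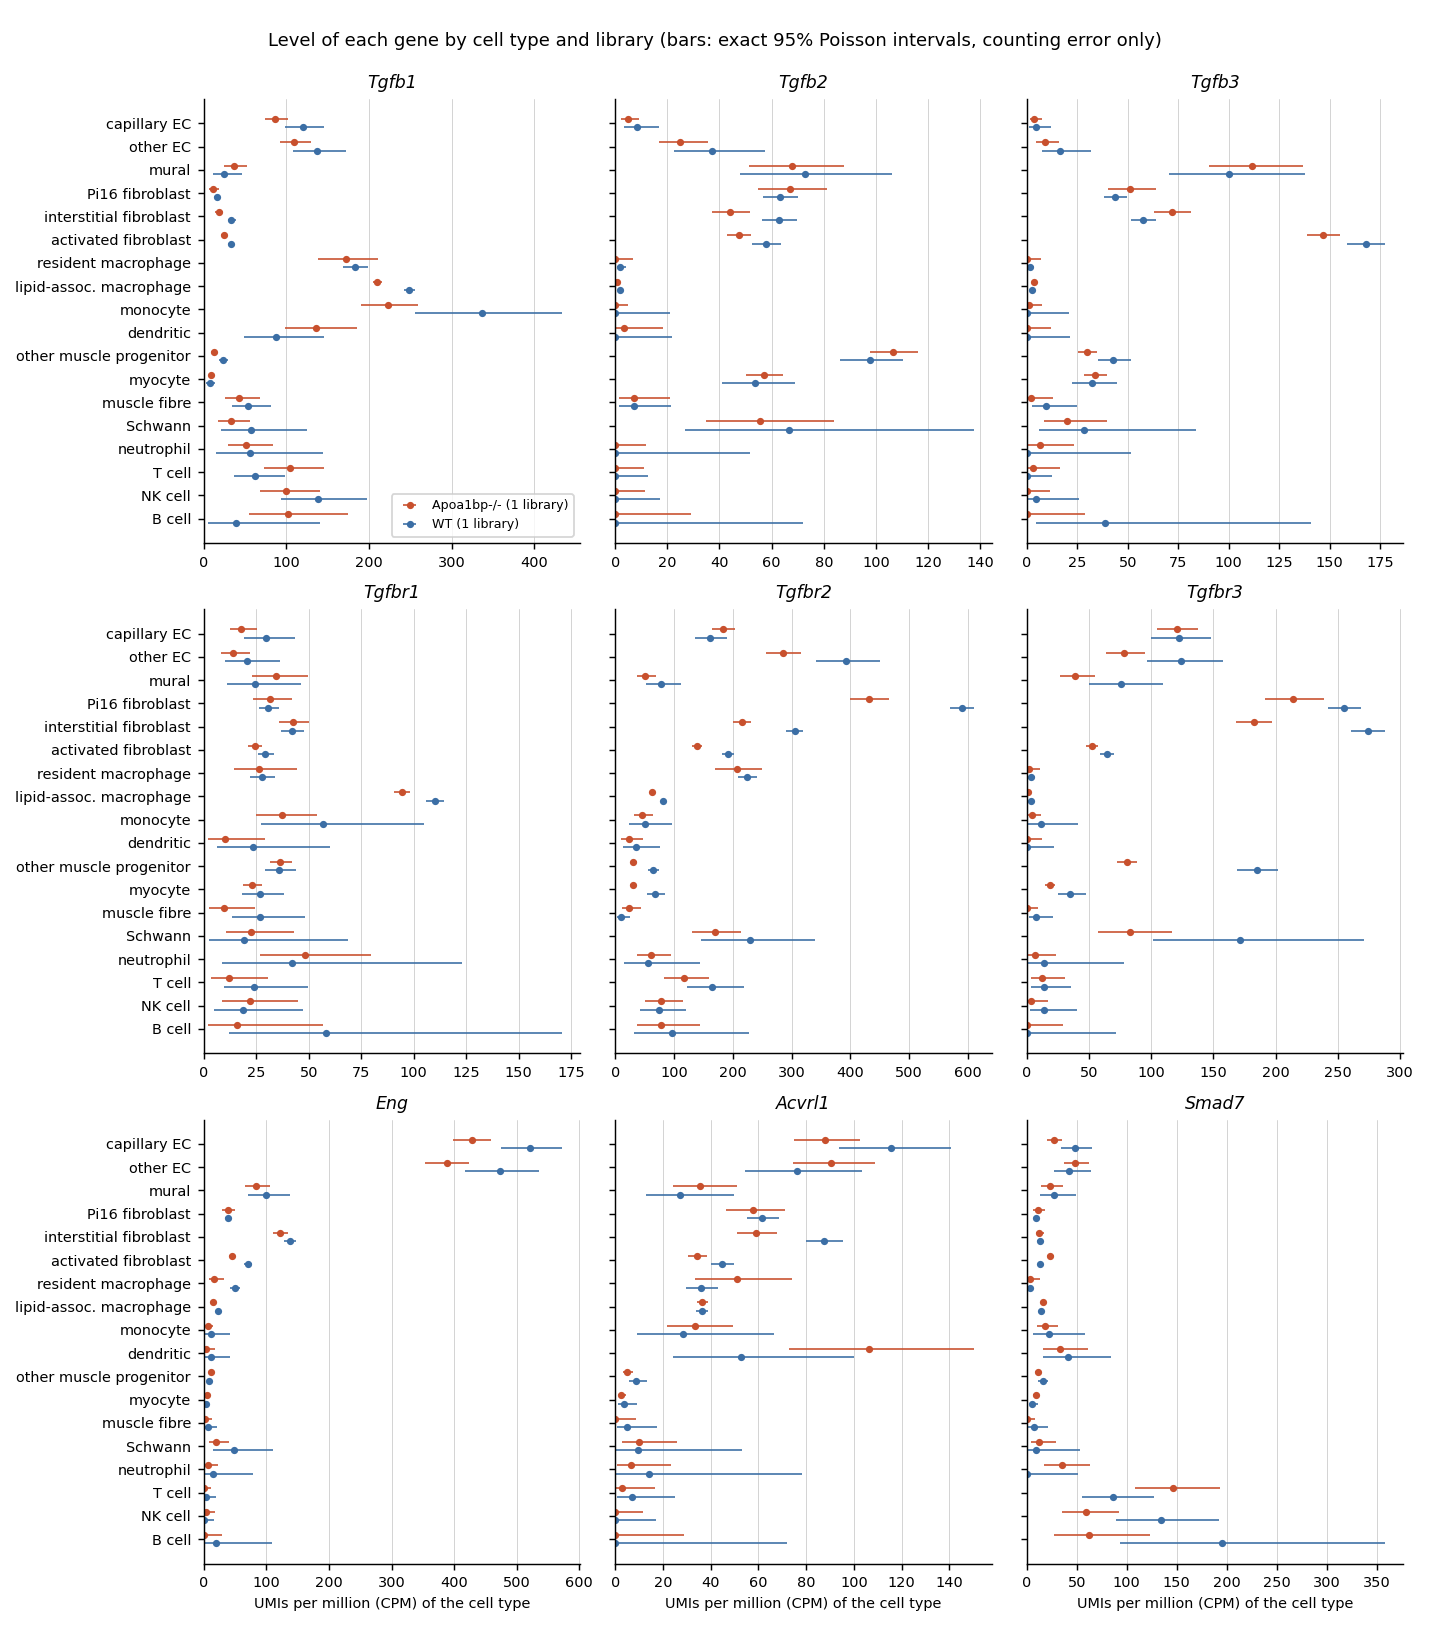
Level of each of the 9 genes in 18 marker-gated cell types, as CPM of the UMIs summed over the cells of a type, with 1 panel per gene and 1 point per library (Apoa1bp-/- above WT), and bars for 95% Poisson counting intervals (EC, endothelial cell). Tgfb1 peaked in monocyte-like and macrophage-like cells, Tgfb2 in muscle progenitor-like cells outside the myocyte set, Tgfb3 in activated fibroblast-like cells, Tgfbr2 in Pi16 fibroblast-like cells and Eng in endothelial-like cells, each in both libraries.

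Tgfb1, which encodes the main ligand of leukocytes, came mostly from phagocytes. Phagocyte-like cells held 79.0% of its UMIs in the Apoa1bp-/- library and 80.1% in the WT library. Its level there was 209 CPM in Apoa1bp-/- cells and 236 CPM in WT cells. Monocyte-like cells had the highest level of the 18 types, at 223 CPM in Apoa1bp-/- and 336 CPM in WT cells, before the lipid-associated macrophage-like cells (marked by Gpnmb, Trem2 and Spp1) at 210 CPM and 248 CPM. Endothelial-like cells were next among the non-leukocytes, with 95.98 CPM in Apoa1bp-/- and 127 CPM in WT cells. Fibroblast-like cells had 24 CPM and 28.1 CPM, and muscle progenitor-like cells 10.6 CPM and 18.6 CPM. Neighbouring types in the order of levels could mostly not be separated: counting intervals overlapped in 17 of 17 neighbouring pairs in the Apoa1bp-/- library and 15 of 17 in the WT library.

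Tgfb2 and Tgfb3 had the opposite distribution and were made by mesenchymal and myogenic cells. Tgfb2 was highest in muscle progenitor-like cells other than myocytes, at 107 CPM in Apoa1bp-/- and 97.8 CPM in WT cells, and lower in the myocyte-like cells (marked by Myog and the fusion gene Mymk), at 56.9 CPM and 53.7 CPM. Mural-like cells had 67.7 CPM in Apoa1bp-/- and 72.9 CPM in WT cells, and fibroblast-like cells 49.3 CPM and 59.8 CPM. No Tgfb2 UMI was found in neutrophil-like, T cell-like, NK cell-like or B cell-like cells of either library. In T cell-like cells, 3 UMIs would correspond to 8.95 CPM in Apoa1bp-/- and 10.3 CPM in WT cells. Phagocyte-like cells had 0.714 CPM in Apoa1bp-/- and 1.67 CPM in WT cells.

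Tgfb3 was highest in activated fibroblast-like cells (marked by Tnc, Postn and Cthrc1), at 147 CPM in Apoa1bp-/- and 168 CPM in WT cells. The interstitial set (Cxcl14, Smoc2) had 71.8 CPM and 57.5 CPM, and the Pi16 set 51.2 CPM and 43.8 CPM. Within each library the interval of the activated set lay apart from those of the other 2 sets. Fibroblast-like cells as a whole held 61.5% of the Tgfb3 UMIs in the Apoa1bp-/- library and 72.0% in the WT library. Mural-like cells had 112 CPM in Apoa1bp-/- and 99.9 CPM in WT cells, with fibroblast markers summing there to 1503 CPM and 1542 CPM. Whether fibroblast RNA adds to the mural level was not tested.

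Among the receptors, Tgfbr1, the type I receptor gene, was highest in lipid-associated macrophage-like cells, at 94.2 CPM in Apoa1bp-/- and 110 CPM in WT cells. Resident macrophage-like cells (Cd163, Lyve1, Folr2) had 26.4 CPM and 27.6 CPM, with intervals far below. Phagocyte-like cells together held 66.8% of the Tgfbr1 UMIs in the Apoa1bp-/- library and 66.3% in the WT library.

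Tgfbr2, the type II receptor gene, divided the macrophage sets the other way. Its level was 207 CPM in Apoa1bp-/- and 225 CPM in WT resident macrophage-like cells, against 63.4 CPM and 81.7 CPM in the lipid-associated set. Among fibroblasts it was graded in both libraries, at 432 CPM (Apoa1bp-/-) and 590 CPM (WT) in the Pi16 set, 215 CPM and 305 CPM in the interstitial set, and 139 CPM and 191 CPM in the activated set. Endothelial-like cells had 225 CPM in Apoa1bp-/- and 251 CPM in WT cells. Muscle progenitor-like cells were near the low end, with 30.4 CPM in Apoa1bp-/- and 65.5 CPM in WT cells.

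Tgfbr3, which encodes betaglycan, was largely a gene of stromal, myogenic and endothelial cells. It was at 214 CPM in Apoa1bp-/- and 255 CPM in WT Pi16 fibroblast-like cells and at 182 CPM and 274 CPM in the interstitial set, but at 52.3 CPM and 64.5 CPM in the activated set. Endothelial-like cells had 103 CPM and 123 CPM. In the muscle lineage, progenitor-like cells other than myocytes had 80.3 CPM in Apoa1bp-/- and 185 CPM in WT cells, against 18.6 CPM and 34.9 CPM in myocyte-like cells. Phagocyte-like cells had 1.36 CPM and 3.51 CPM.

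Eng, whose product is a co-receptor and a common surface marker of endothelium, was highest in endothelial-like cells, at 412 CPM (389.8 to 435) in Apoa1bp-/- and 503 CPM (466 to 542) in WT cells. With every cell thinned to 1000 UMIs, 37.5% of Apoa1bp-/- and 39.8% of WT endothelial-like cells had an Eng UMI (84.0% and 68.3% before thinning, at medians of 6945 and 2227 UMIs), against 1.60% and 3.08% of phagocyte-like cells (medians of 6478 and 4276 UMIs). The interstitial fibroblast set, at 122 CPM in Apoa1bp-/- and 138 CPM in WT cells, stood above the activated set, at 45.3 CPM and 70.8 CPM, and the Pi16 set, at 38.1 CPM and 38.2 CPM. T cell-like cells had 0 UMIs in the Apoa1bp-/- library and 1 in the WT library, and NK cell-like cells 1 and 0. Eng shares exon sequence with Fpgs on the opposite strand (728 UMIs in Apoa1bp-/- and 860 in WT cells over all types), and no source used here states the strand setting of the counting. Reads of the shared stretch could therefore have been counted for either gene.

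Acvrl1, the ALK1 gene, had 88.8 CPM in Apoa1bp-/- and 100.1 CPM in WT endothelial-like cells. It was not restricted to endothelium: the interstitial fibroblast set had 59.0 CPM in Apoa1bp-/- and 87.4 CPM in WT cells, and phagocyte-like cells 38.7 CPM and 36.7 CPM. The small dendritic-like set (29 Apoa1bp-/- and 32 WT cells) had 106 CPM and 52.7 CPM. No Acvrl1 UMI was found in NK cell-like or B cell-like cells of either library, where 3 UMIs would correspond to 9.36 CPM in Apoa1bp-/- and 13.8 CPM in WT NK cell-like cells.

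Smad7, which is induced by the pathway and blocks the type I receptor, was highest in lymphoid cells. T cell-like cells had 146 CPM in Apoa1bp-/- and 86.1 CPM in WT cells, NK cell-like cells 59.3 CPM and 134 CPM, and B cell-like cells 62.6 CPM and 195 CPM, the last from 8 UMIs in the Apoa1bp-/- library and 10 in the WT library. Endothelial-like cells followed with 35.7 CPM and 46.1 CPM. The order of the 3 lymphoid types differed between the libraries, and the intervals overlapped in all 17 neighbouring pairs of each.

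For the other 7 genes, intervals of neighbouring types overlapped in 14 to 16 of 17 pairs in the Apoa1bp-/- library and 14 to 17 in the WT library. The distributions can be compared across 32 points, the sums of 16 cell types in each of the libraries, with Pearson's r of log2(CPM + 10) as a description. The points share libraries and depths. Tgfb2 went with Tgfb3 (r = 0.87) and with Tgfbr3 (r = 0.78) and against Tgfb1 (r = -0.78), and Eng went with Acvrl1 (r = 0.84). Of 13531 genes, the one most like Tgfb1 was Nrros (r = 0.90), which encodes an anchor for latent TGF-beta on myeloid cells and microglia. Nearest to Tgfb2 were Adgra3 (r = 0.95), Ryk and Smo (both r = 0.93). Kdelr3, Obsl1 and Gli3 (each r = 0.93) were nearest to Tgfb3, Lamc1 (r = 0.94) to Tgfbr3, Kctd12b (r = 0.94) to Eng, and Papss2 (r = 0.86) to Acvrl1. Tgfbr1 and Tgfbr2 had weaker nearest genes, Cstb (r = 0.78) and Add1 and Ctso (both r = 0.81). Gprin3, Gimap9 and Adora2a (each r = 0.87) were nearest to Smad7.

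**Figure D2:**
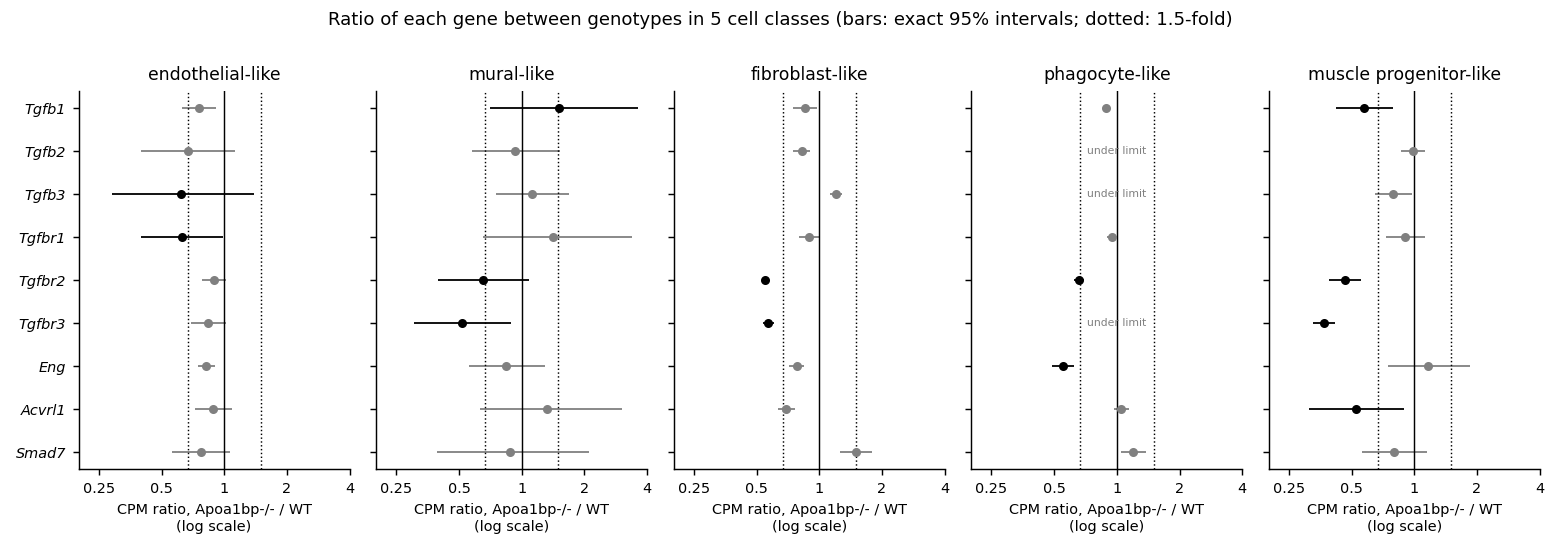
Ratio of Apoa1bp-/- over WT level (CPM) for each of the 9 genes in 5 cell types, on a log axis with 95% conditional counting intervals and dotted lines at 1.5-fold in either direction. Black points are at or past 1.5-fold. Tgfbr3 in muscle progenitor-like cells, at 0.368, lies lowest of the points drawn, and Tgfb2, Tgfb3 and Tgfbr3 in phagocyte-like cells are marked as under the limit for a measured gene.

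Between the genotypes the clearest differences were in receptor genes, and all of these were lower in Apoa1bp-/- cells. A gene counted as measured in a cell type from 5 CPM in either library and 20 UMIs summed over both libraries, and differences were counted from 1.5-fold. In muscle progenitor-like cells, 4 of 9 measured genes were at least 1.5-fold lower and 0 higher in Apoa1bp-/- cells. Over all 10198 genes measured there, 14.6% were at least 1.5-fold lower and 8.85% higher. The median log2 ratio was -0.34 for the 9 genes and -0.09 for all genes. Tgfbr3 had 52.0 CPM in Apoa1bp-/- (488 UMIs) and 141 CPM in WT progenitor-like cells (539 UMIs), a ratio of 0.368 (0.325 to 0.417). Tgfbr2 had 30.4 CPM and 65.5 CPM, a ratio of 0.464 (0.390 to 0.552). Levels of both genes were lower in Apoa1bp-/- cells without overlap of the intervals. The other 2 were Tgfb1, at 0.573 (0.419 to 0.788), and Acvrl1, at 0.523 (0.310 to 0.890) on 36 Apoa1bp-/- and 28 WT UMIs. Tgfb2, which these cells make themselves, was level, at 0.988 (0.867 to 1.13).

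Both receptor genes were also lower in the 2 progenitor sets. In myocyte-like cells (350 Apoa1bp-/- and 133 WT), the ratio was 0.434 (0.324 to 0.584) for Tgfbr2 and 0.533 (0.359 to 0.802) for Tgfbr3. In the other progenitor-like cells (694 and 701), it was 0.482 (0.387 to 0.602) and 0.434 (0.380 to 0.495). Of these other cells, 431 Apoa1bp-/- and 629 WT cells held no UMI of the cell cycle genes Mki67, Top2a, Cenpf and Birc5. Over all progenitor-like cells without such UMIs (670 and 741), the ratio was 0.486 for Tgfbr2 and 0.378 for Tgfbr3. With cells thinned to 1000 UMIs, 6.43% (5.02 to 8.09) of Apoa1bp-/- and 18.9% (16.3 to 21.8) of WT progenitor-like cells had a Tgfbr3 UMI. Unthinned, these shares were 31.6% and 41.8%, at medians of 7737 and 3542 UMIs. Phagocyte-like cells, which had little Tgfbr3, had thinned shares of 0 and 0.402%.

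Fibroblast RNA moved with these values. The 10 fibroblast markers summed to 356 CPM in Apoa1bp-/- and 760 CPM in WT progenitor-like cells, with 0 of 10 absent, against 8529 CPM and 10834 CPM in fibroblast-like cells. In the WT library Tgfbr3 was at 141 CPM in progenitor-like and 186 CPM in fibroblast-like cells. Among the 311 Apoa1bp-/- and 195 WT progenitor-like cells without any UMI of those markers, a set chosen after seeing the data, the ratio was 0.416 for Tgfbr2, 0.190 for Tgfbr3, 0.512 for Tgfb1 and 0.768 for Acvrl1, so that Acvrl1 was no longer past 1.5-fold. In the myocyte-like cells left in it, Tgfbr3 turned to 1.29. In cells of 2000 to 10000 UMIs the ratio was 0.488 for Tgfbr2 and 0.540 for Tgfbr3. Dissociation and immediate early genes also moved here: 9 of 12 were at least 1.5-fold lower and 0 higher in Apoa1bp-/- cells, with Hspa1a at 29.7 CPM in Apoa1bp-/- and 191 CPM in WT cells and Fos at 487 CPM and 957 CPM. Their part in the receptor differences was not tested.

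In fibroblast-like cells, 2 of 9 genes were at least 1.5-fold lower and 0 higher in Apoa1bp-/- cells, against 13.5% lower and 7.63% higher of 10409 genes. The pair was again Tgfbr2, with 189 CPM in Apoa1bp-/- and 342 CPM in WT cells (ratio 0.552, 0.528 to 0.576), and Tgfbr3, with 106 CPM and 186 CPM (0.570, 0.537 to 0.604). A Tgfbr2 UMI was found in 18.5% (16.5 to 20.8) of Apoa1bp-/- and 30.4% (28.9 to 32.0) of WT fibroblast-like cells after thinning. Smad7 was just under the limit in the other direction, at 18.8 CPM in Apoa1bp-/- and 12.53 CPM in WT cells (1.5, 1.26 to 1.78). Tgfb3, at 1.20 (1.13 to 1.28), differed less.

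The fibroblast sets were not equally filled, and the part of this in the difference was not tested. Pi16 fibroblast-like cells, where Tgfbr2 was highest, numbered 194 of 1327 in the Apoa1bp-/- library and 1158 of 3483 in the WT library, and the activated cells, where it was lowest, 490 and 708. Within the sets the Tgfbr2 ratio was 0.733 (0.673 to 0.797) in Pi16, 0.705 (0.646 to 0.769) in interstitial and 0.728 (0.673 to 0.787) in activated cells, lower in Apoa1bp-/- cells and short of 1.5-fold in these 3 sets. In the fibroblast-like cells assigned to no set (123 Apoa1bp-/- and 290 WT) it was past 1.5-fold, at 0.516 (0.435 to 0.609). Tgfbr3 was at 0.839, 0.665 and 0.810 in the 3 sets and at 0.666 in the unassigned cells, past 1.5-fold in the interstitial set and the unassigned cells. With levels averaged equally over these 3 sets and the unassigned cells, Tgfbr2 came to 0.676 and Tgfbr3 to 0.734, and neither reached 1.5-fold. In cells of 2000 to 10000 UMIs they came to 0.693 and 0.837.

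Genes differed by set in other ways. Smad7 in activated cells was at 23.8 CPM in Apoa1bp-/- (203 UMIs) and 13.7 CPM in WT (102 UMIs), a ratio of 1.74 (1.36 to 2.23), while its ratio was 0.975 (0.654 to 1.44) in interstitial and 1.17 (0.635 to 2.05) in Pi16 cells. Whether these ratios differ between the sets was not tested, and the ratio in activated cells ran from 1.16 to 4.31 over the alternative settings. Eng was lower in activated Apoa1bp-/- cells (0.640, 0.560 to 0.731) and level in the Pi16 set (0.997, 0.732 to 1.34). Over the alternative settings its ratio ran from 0.595 to 0.935 in activated and from 0.762 to 1.51 in Pi16 cells. Tgfb3 was at 0.875 in activated, 1.25 in interstitial and 1.17 in Pi16 cells. Its higher level over all fibroblast-like cells thus stood beside a lower one in the activated set, the set with the most Tgfb3. The ratio in activated cells was, however, above 1 under 3 of the alternative settings (up to 1.09). Over all fibroblast-like cells the Tgfb3 ratio ran from 1.01 to 1.40 over the settings. It was 1.06 with the sets weighted equally and 1.01 in cells of 2000 to 10000 UMIs.

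**Figure D3:**
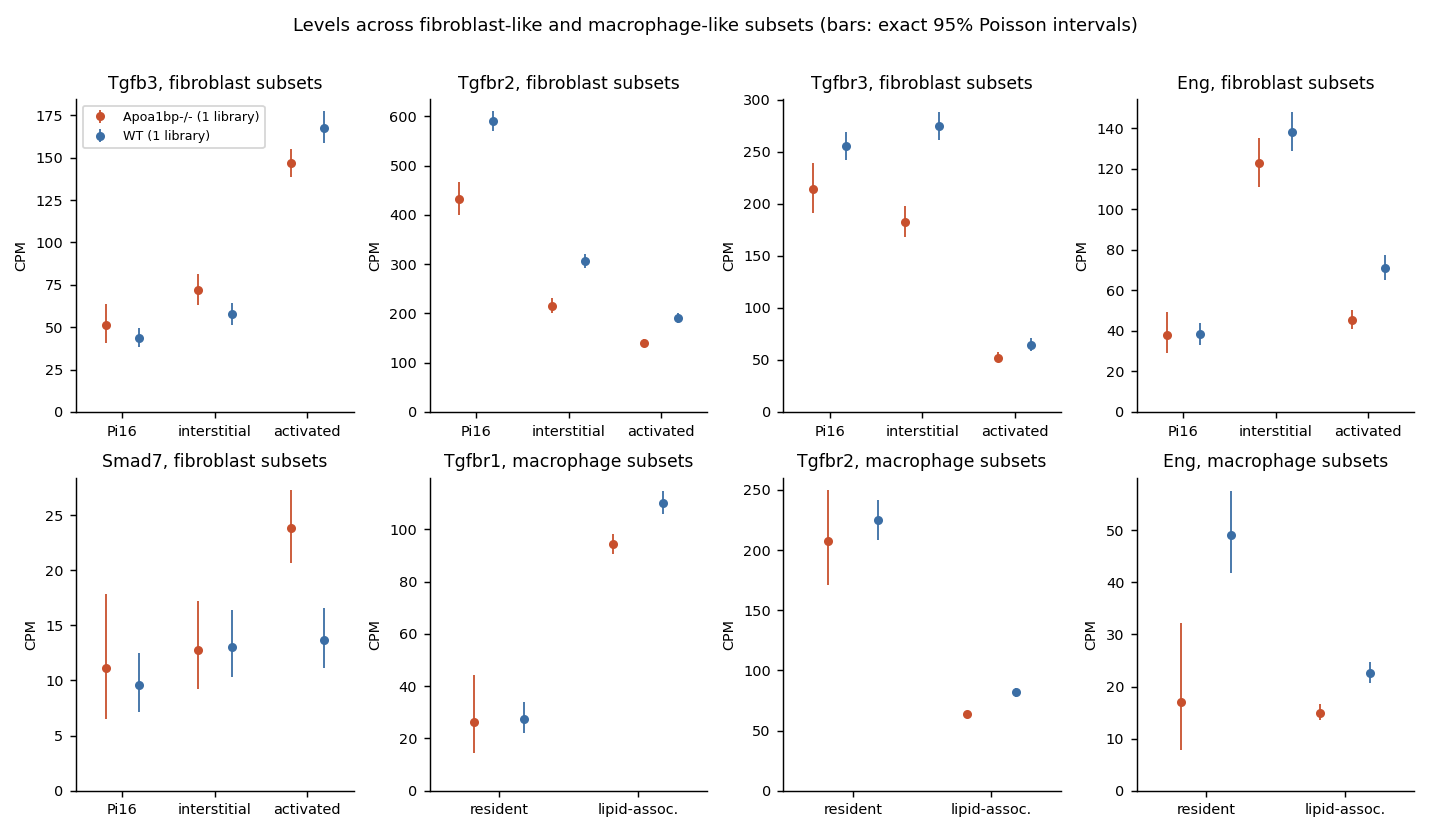
Levels (CPM, with 95% Poisson intervals) of Tgfb3, Tgfbr2, Tgfbr3, Eng and Smad7 in 3 fibroblast-like sets and of Tgfbr1, Tgfbr2 and Eng in 2 macrophage-like sets, with Apoa1bp-/- left of WT in each. Tgfbr2 descends from the Pi16 to the interstitial to the activated set in both libraries and is lower in Apoa1bp-/- cells within each, while Tgfbr1 and Tgfbr2 order the macrophage-like sets in opposite ways.

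In phagocyte-like cells, 6 of the 9 genes were measured, and 2 of them were at least 1.5-fold lower and 0 higher in Apoa1bp-/- cells, against 8.85% lower and 2.91% higher of 9224 genes. Eng had 14.5 CPM in Apoa1bp-/- and 26.4 CPM in WT cells (0.551, 0.487 to 0.622), and Tgfbr2 66.7 CPM and 101 CPM (0.659, 0.622 to 0.699). The phagocyte sets were also unequally filled, and the part of this in the Tgfbr2 difference was not tested. Resident macrophage-like cells, where Tgfbr2 is high, numbered 120 in the Apoa1bp-/- library and 826 in the WT library. Within the resident set its ratio was 0.923 (0.748 to 1.13), and within the lipid-associated set (2970 and 3771 cells) 0.776 (0.725 to 0.831). It was at 0.712 in phagocyte-like cells assigned to no set, and with levels averaged equally over all sets it came to 0.828. Eng was lower in both sets, at 0.345 (0.155 to 0.673) on 9 Apoa1bp-/- and 157 WT UMIs in the resident set and 0.661 (0.577 to 0.757) in the lipid-associated set.

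Markers of fibroblasts summed to 39.8 CPM in Apoa1bp-/- and 100.3 CPM in WT phagocyte-like cells, and those of endothelium to 15.9 CPM and 20.03 CPM, with 0 of 10 absent in each list. Without cells holding a fibroblast marker UMI (2943 Apoa1bp-/- and 3553 WT cells left), the ratio was 0.529 for Eng and 0.669 for Tgfbr2. Tgfb1 differed little, at 0.885 (0.854 to 0.916), as did Tgfbr1 at 0.949 and Acvrl1 at 1.05. These genes stayed within 1.5-fold in the lipid-associated set as well, but in phagocyte-like cells assigned to no set (464 Apoa1bp-/- and 787 WT) Tgfbr1 was higher, at 1.55 (1.21 to 1.99), and Acvrl1 was at 1.39 (1.04 to 1.83).

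Endothelial-like cells, which the series title names, had 0 of 9 genes higher and 2 lower by 1.5-fold, against 8.56% higher and 16.0% lower of 9960 genes. Those were Tgfbr1, at 16.2 CPM in Apoa1bp-/- and 25.9 CPM in WT cells (0.625, 0.399 to 0.988), and Tgfb3, at 5.84 CPM and 9.37 CPM on 18 and 13 UMIs (0.623, 0.289 to 1.38). The Tgfb3 interval spanned equality, and its ratio turned to 1.36 in thinned cells. Eng (0.820, 0.747 to 0.900) and Tgfb1 (0.757, 0.626 to 0.917) were lower by less than 1.5-fold, though Eng ran from 0.766 to 1.08 over the alternative settings, and Acvrl1 (0.887, 0.721 to 1.10) and Tgfbr2 (0.894, 0.785 to 1.02) had intervals that held 1. Smad7 was at 27.1 CPM in Apoa1bp-/- and 48.3 CPM in WT capillary endothelial-like cells (0.561, 0.364 to 0.870) and at 48.4 CPM and 42.7 CPM in the other endothelial-like cells (1.13, 0.691 to 1.92). In capillary cells of 2000 to 10000 UMIs that ratio turned to 1.09. Depth differed most in this type, with medians of 6945 UMIs in Apoa1bp-/- and 2227 in WT cells, and mural markers summed to 115 CPM and 302 CPM.

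Mural-like cells, few and shallow, had 1 of 9 genes higher and 2 lower, against 12.2% higher and 17.8% lower of 7172 genes. Tgfbr3 was at 39.2 CPM in Apoa1bp-/- and 75.6 CPM in WT cells (0.518, 0.304 to 0.890). For Tgfbr2 (0.652, 0.398 to 1.08) and Tgfb1 (1.51, 0.704 to 3.62, from 31 and 9 UMIs) the intervals held 1. The count of genes past 1.5-fold ran from 1 to 5 over the settings in this type. In T cell-like cells (116 Apoa1bp-/- and 142 WT), Smad7 had 49 and 25 UMIs, a ratio of 1.70 (1.03 to 2.87). After thinning, 13.4% of Apoa1bp-/- and 9.84% of WT T cell-like cells had a Smad7 UMI, with overlapping intervals, against 1.69% and 1.15% of phagocyte-like cells.

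Scaling by trimmed means (TMM factors) in place of total UMIs raised the median of all genes by 0.07 (fibroblast-like) to 0.17 (phagocyte-like) on the log2 scale. It changed the split of higher to lower genes to 14.2% and 10.2% in endothelial-like, 18.9% and 11.3% in mural-like, 9.47% and 10.4% in fibroblast-like, 6.45% and 4.50% in phagocyte-like, and 13.7% and 9.72% in muscle progenitor-like cells. Under it Tgfbr2 was at 0.509 and Tgfbr3 at 0.404 in muscle progenitor-like cells, at 0.577 and 0.596 in fibroblast-like cells, and Tgfbr2 at 0.740 in phagocyte-like cells, where it no longer reached 1.5-fold. Smad7 in fibroblast-like cells then passed 1.5-fold, at 1.57. It was at 1.21 with the fibroblast sets weighted equally and at 0.938 in cells of 2000 to 10000 UMIs.

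The rest of the pathway was taken from 8 lists. In fibroblast-like cells 4 of 6 measured genes that bind or present latent ligand were at least 1.5-fold lower in Apoa1bp-/- cells and 0 higher. Their median log2 ratio was -0.81 beside -0.10 over all genes. Among all 10409 genes measured in fibroblast-like cells, 13.5% were lower and 7.63% higher. Ltbp1 had 62.5 CPM in Apoa1bp-/- and 140 CPM in WT cells, and Ltbp4 126 CPM and 282 CPM. These encode the proteins that tether the latent complex to matrix. Fbn1, the fibrillin gene, had 773 CPM and 1241 CPM. Lrrc32, which encodes a protein that holds latent ligand at the cell surface, had 10.5 CPM and 20.1 CPM. Within 1.5-fold were Ltbp2, at 1.41 (1.28 to 1.54), and Ltbp3, at 0.956 (0.896 to 1.02). With the fibroblast sets weighted equally 2 of 6 were lower (median -0.39), and in cells of 2000 to 10000 UMIs 1 of 6 (median -0.26). Among activators 3 of 9 were lower and 1 higher, the lower ones being the integrin genes Itgav, Itgb3 and Itgb5 (ratios of 0.653, 0.653 and 0.614). The higher one was Mmp9, which is also a neutrophil marker. Of the ligands of the BMP, GDF and activin families, 5 of 9 were lower and 0 higher (median -0.85), among them Bmp4, at 32.3 CPM in Apoa1bp-/- and 58.5 CPM in WT cells. Smad transducers had 0 of 5 past 1.5-fold in either direction, and BMP and activin receptors 1 of 6 lower (Bmpr2, 0.626).

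Of 18 measured genes that TGF-beta is known to induce, 3 were at least 1.5-fold higher and 0 lower in fibroblast-like cells (median 0.26). Of all 10409 genes measured there, 7.63% were higher and 13.5% lower. Over the alternative settings 2 to 7 of the induced genes were higher and 0 lower, with medians from 0.09 to 0.42. The contractile genes Acta2, at 515 CPM in Apoa1bp-/- and 202 CPM in WT cells (2.55, 2.46 to 2.65), and Tagln, at 389.0 CPM and 135 CPM (2.88, 2.75 to 3.01), led the list, and Cdkn2b was the other. Mural markers summed to 50.2 CPM in Apoa1bp-/- and 45.6 CPM in WT fibroblast-like cells. Activated cells numbered 490 of 1327 Apoa1bp-/- and 708 of 3483 WT fibroblast-like cells. The part of mural RNA or of the set sizes in the Acta2 and Tagln ratios was not tested. Ccn2 (0.989), Pmepa1 (0.716) and Col1a1 (0.861) stayed within 1.5-fold. Genes induced by BMPs and ALK1 had 3 of 6 higher and 1 lower (median 0.61): Id1, Id3 and Id4 were at 1.68, 1.62 and 1.65, and Tmem100, a gene downstream of ALK1 in endothelium, at 0.448. With the sets weighted equally, 1 of the 6 was higher and the median was 0.13. Among inhibitors, 1 of 9 was higher, the decoy receptor gene Bambi (3.32, 2.61 to 4.24, at 15.8 CPM in Apoa1bp-/- and 4.76 CPM in WT cells), and 2 were lower, Smurf2 (0.515) and Ski (0.653).

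Muscle progenitor-like cells gave another picture. There 9 of 16 TGF-beta induced genes were lower and 1 higher in Apoa1bp-/- cells, with a median of -1.0 beside -0.09 over all genes. Of all 10198 genes measured in these cells, 14.6% were lower and 8.85% higher. Myocyte-like cells numbered 350 of 1044 Apoa1bp-/- and 133 of 834 WT progenitor-like cells. The part of these set sizes in the list values was not tested. Col1a1 had 123 CPM in Apoa1bp-/- and 339 CPM in WT cells, and Fn1 57.1 CPM and 117 CPM. Several of these are matrix genes also made by fibroblasts, whose markers differed in the same direction. Without cells holding a fibroblast marker UMI, 9 of 12 measured were lower and 1 higher (median -1.23). In that subset 20.7% of 8896 genes were lower and 17.0% higher. Over the alternative settings 7 to 11 of the induced genes were lower and 0 to 1 higher, with medians from -1.23 to -0.53. Pmepa1, which encodes a feedback inhibitor and is in the list of inhibitors too, had 223 CPM and 513 CPM (0.435, 0.409 to 0.463). The higher one of the 16 induced genes was Acta2 (1.67, 1.61 to 1.73). Of 9 inhibitors 4 were lower and 1 higher (Bambi, 2.00), of 6 BMP and activin receptors 4 were lower, of 4 latent ligand genes 2 (Ltbp1, 0.517, and Ltbp4, 0.566), of 9 activators 5, and of 5 BMP, GDF and activin ligands 3, with Gdf15 higher. BMP and ALK1 induced genes had 1 of 4 lower (Id2, 0.608), and Smad transducers again 0 of 5 in either direction.

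**Figure D4:**
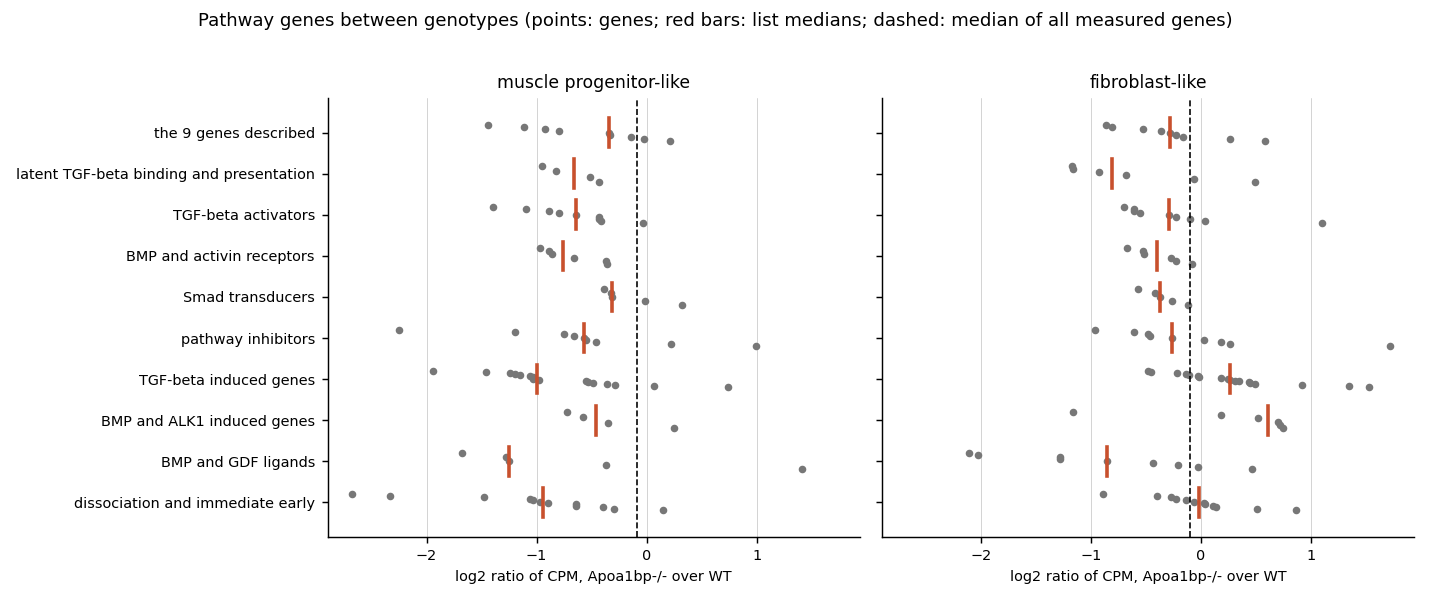
Log2 ratio of Apoa1bp-/- over WT level for the measured genes of each pathway list in muscle progenitor-like and fibroblast-like cells, with 1 point per gene, a red bar for each list's median and a dashed line for the median of all measured genes. The median of TGF-beta induced genes lies at -1.0 in muscle progenitor-like cells and at 0.26 in fibroblast-like cells.

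In phagocyte-like cells 8 of 13 TGF-beta induced genes were lower and 0 higher (median -0.80 beside -0.13 over all genes). Of all 9224 genes measured there, 8.85% were lower and 2.91% higher. The lower induced genes included the collagen genes Col1a1 (44.3 CPM in Apoa1bp-/- and 110 CPM in WT cells) and Col3a1 (49.5 CPM and 144 CPM). Fibroblasts also make both, and the fibroblast markers above shared their direction. Fn1 (169 CPM and 342 CPM) was another. Pmepa1, at 55.6 CPM and 96.7 CPM, was among the 3 of 9 inhibitors that were lower. Without phagocyte-like cells holding a fibroblast marker UMI, 7 of 12 measured induced genes were lower and 0 higher (median -0.82). In that subset 9.94% of 9177 genes were lower and 3.25% higher. Over the alternative settings 6 to 13 of the induced genes were lower and 0 to 1 higher, with medians from -1.04 to -0.53. Endothelial-like cells had 6 of 15 induced genes lower, among them 3 collagen genes, and 2 higher, Acta2 (2.85) and Tagln (2.53). Both are also contractile genes of mural cells, whose summed markers were lower in Apoa1bp-/- endothelial-like cells. The part of mural RNA in the Acta2 and Tagln ratios was not tested. Of all 9960 genes measured in endothelial-like cells, 16.0% were lower and 8.56% higher. Over the alternative settings 3 to 8 of the induced genes were lower and 1 to 3 higher. Ltbp4 in endothelial-like cells had 334 CPM in Apoa1bp-/- and 596 CPM in WT cells (0.560, 0.510 to 0.614) and Bmpr2, the type II partner of ALK1, 101 CPM and 200 CPM (0.505, 0.428 to 0.596). Of the latent ligand genes, 2 of 6 measured in endothelial-like cells were lower, and 0 to 4 over the alternative settings. The ALK1 targets Id1 (0.843) and Id3 (0.858) stayed within 1.5-fold in endothelial-like cells. Of the 7 BMP and ALK1 induced genes measured in endothelial-like cells, 1 was higher (Gja4, 1.75) and 0 lower. In mural-like cells 0 of 14 TGF-beta induced genes were past 1.5-fold in either direction (median -0.15). Of all 7172 genes measured there, 17.8% were lower and 12.2% higher. Over the alternative settings 0 to 4 of the induced genes were lower and 0 to 1 higher.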

How the data were processed

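Deposited raw UMI counts per gene and barcode were used, which the authors made with Cell Ranger (version 5.0.0 per the file headers, 2.1.1 per the submitters' processing notes, a difference that could not be settled). No source used here states the genome build or annotation. The matrices held 9392 Apoa1bp-/- and 14035 WT barcodes with 80444279 and 80954991 UMIs, of which 43 barcodes were shared. Barcodes under 200 genes (31 and 49), over 10% mitochondrial UMIs (197 and 149) or called doublets by Scrublet in scanpy 1.11.5 (649 and 1552, or 7.08% and 11.2%) were removed. Cells were gated by at least 3 of 10 markers of a type, with the runner-up at no more than 0.5 of its count. Muscle fibre barcodes were those with at least 5% of UMIs in fibre markers, and 12.9% of Apoa1bp-/- and 12.1% of WT cells stayed ungated. Sets within a type needed 3 markers and more than any other set. Arterial, venous and tip endothelial sets were small, with the lymphatic gene Ccl21a among their leading genes, and were merged with the remaining cells as other endothelial-like cells. Gate thresholds were set after looking at the data.

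Counts were summed per type and library (scipy 1.17.1). Levels are CPM of those sums with exact Poisson intervals, ratios have exact conditional intervals, shares have Clopper-Pearson intervals, and log2 ratios use a prior count of 0.5. Ratios were computed for types with at least 100 cells in each library, and correlations for types with at least 50. PCR and dissociation errors are outside these intervals. Scripts were tested on simulated data. TMM factors came from edgeR 4.0.16, used for scaling only. GENCODE annotation served only to find overlapping genes.

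All 9 genes are reported. From each pathway list, those with the most UMIs or the largest differences in endothelial-like, fibroblast-like or macrophage-like cells were named, and for muscle progenitor-like cells genes were named after their values were seen. From the 3 genes most like each of the 9, leaving out gate markers, the nearest were named, not always all 3. The genes and lists were chosen with earlier results of these data known. Alternatives covered thinning, gating, filters, scaling, weighting of sets and the limit for a measured gene. The values of 1 gene of these lists are not reported here.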

Additional observations from a re-analysis of the deposited data

How the results depend on the processing

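Of 79 counts of genes past 1.5-fold under an alternative, 60 stayed within 1.5 times the value reported. In endothelial-like cells (2 reported) the count was 1 with thinned cells, a gate of 4 markers, a gate on thinned cells, a limit of 20 CPM or without cells holding lymphatic genes, and 0 with TMM factors or in cells of 2000 to 10000 UMIs. In mural-like cells (3 reported) it was 1 with thinned cells or cells of 2000 to 10000 UMIs and 5 with a gate on thinned cells. In fibroblast-like cells (2 reported) it was 0 with sets weighted equally or in cells of 2000 to 10000 UMIs. In phagocyte-like cells (2 reported) it was 1 with the mean over cells, TMM factors, sets weighted equally, cells of 2000 to 10000 UMIs or without cells holding fibroblast markers, and 4 with no limit for a measured gene. In muscle progenitor-like cells (4 reported) it was 2 from 20 CPM, where 2 of the genes fell under the limit. Of 1754 alternative values of single ratios, 88 lay on the other side of 1 from the value reported, most of them for ratios within 1.5-fold. Among ratios past 1.5-fold, 7 values did: Tgfb3 in endothelial-like cells (1.36 thinned, 1.26 with a gate on thinned cells, 1.03 in cells of 2000 to 10000 UMIs) and in noncapillary ones (1.28 with a gate on thinned cells), Smad7 in capillary cells (1.09) and myocyte-like cells (0.859) of 2000 to 10000 UMIs, and Tgfbr3 in myocyte-like cells without fibroblast markers (1.29). The causes were not tested. In muscle progenitor-like cells Tgfbr2 ran from 0.403 to 0.562 and Tgfbr3 from 0.190 to 0.540, in fibroblast-like cells Tgfbr2 from 0.551 to 0.693, and in phagocyte-like cells Eng from 0.427 to 0.618. The settings by cell depth and by lymphatic, cell cycle or fibroblast genes were chosen after seeing the data. No paired analysis was possible because each genotype has 1 library. Depth limits the genes with few UMIs in mural-like, lymphoid and endothelial-like cells.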
